A study of Mus musculus with 48 samples.

Results

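Polyamines (putrescine, spermidine and spermine) are small positively charged molecules that bind RNA and are needed for growth and for translation. Ornithine decarboxylase makes putrescine, and spermidine synthase and spermine synthase extend it with aminopropyl groups supplied by S-adenosylmethionine decarboxylase. The supply is held by feedback: antizymes bind ornithine decarboxylase and lead it to degradation, an antizyme inhibitor sequesters them, and an acetyltransferase and an oxidase return the longer polyamines to the shorter ones. Several of the mRNAs of this circuit are known to be translated according to the polyamine level itself, and the pathway is raised in many tumours, pancreatic ductal adenocarcinoma included.

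The members described here were 9 genes, chosen by symbol because polyamines are known to act on their translation or amount: the biosynthetic enzymes Odc1, Amd1, Srm and Sms, the regulators Oaz1, Oaz2 and Azin1, and the catabolic enzymes Sat1 and Smox. All 9 were found among the 50600 genes listed, and all 9 were among the 13889 genes that passed the filter on low counts.

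The libraries were made from mPDAC, 1 murine cell line of pancreatic ductal adenocarcinoma, labelled with the genetic background FVB/N x C57BL6, the age of 8 weeks and the source PDAC. Cultures were left non-treated (NT) or received N6L, a pseudopeptide antagonist of the nucleolar protein nucleolin, at 50 µM for 48 h. mRNA was sequenced from the cytoplasmic lysate of each culture and from the pooled polysomal fractions of a sucrose gradient run on the same lysate. NT cultures 1, 2 and 4 and N6L cultures 1, 2 and 3 each gave a cytoplasmic and a polysomal library, so that each of the 4 groups held 3 libraries. All cultures of both groups were incubated with emetine, which holds ribosomes on mRNA, before lysis. The labels set the cultures apart only by a sample number, so the p-values measure the spread between these samples, which may be technical.

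The 12 libraries held 19519911 to 44972333 counts, and the levels below are counts as a share of the library (CPM) scaled by trimmed mean of M values (TMM). Of 7 ductal markers, 6 passed the filter, with summed levels of 6427 to 10524 CPM across the libraries, while Epcam stayed at or below 0.30 CPM. Krt8 (2036 to 3356 CPM) and Krt18 (2688 to 4503 CPM) carried most of that sum, and Sox9 lay at 18.3 to 66.7 CPM. Cpa1, Cpb1, Pnlip, Amy2b and Ptf1a of the 8 acinar markers had no count in any library, and Cela1 carried nearly all of that list's 27.8 to 82.8 CPM. Ins1, Ins2, Gcg and Chga of the 5 islet markers were at 0 everywhere. The sums stayed at or below 0.477 CPM for fibroblast, 2.23 CPM for leukocyte and 1.06 CPM for endothelial markers. A CPM value is a share of the mRNA of its library, so fewer cells and less RNA per cell cannot be told apart, and a loss shared by all mRNAs is not visible. The polysomal library of N6L culture 3 lay away from cultures 1 and 2 for 6 of the members, and results that rest on it are given with and without it.

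The sequences below are some of those through which polyamines are known to act on the translation of these mRNAs, read from the GENCODE transcripts of build GRCm38. Upstream open reading frames were sought only where they start with ATG. The Amd1 mRNA carries a short upstream open reading frame, at which ribosomes are known to stall when polyamines are plentiful. In the main transcript it lay at chr10:40302155-40302175 on the minus strand, in the 5′ untranslated region, and spanned transcript bases 12 to 32, with its start and stop codons in capitals.
Amd1 upstream open reading frame: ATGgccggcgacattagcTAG

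It was 21 nucleotides long including the stop codon, encoded 6 amino acids, and ended 296 nucleotides before the main start codon. It was the only upstream open reading frame starting with ATG in that transcript. Such frames were also present in the main transcripts of Odc1 (2), Azin1 (3), Sat1 (2) and Sms (4), and were absent from those of Oaz1, Oaz2, Srm and Smox. One of those of Sat1 and one of those of Sms overlapped the main coding sequence. The 5 of 9 members with an upstream open reading frame of this kind compare with 50.1% of the 12098 protein-coding genes tested. Which of these frames polyamines act on was not tested.

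Antizyme mRNAs are read through a stop codon by a shift of the reading frame that polyamines promote. The shift sites of Oaz1 and Oaz2 are shown with the last sense codon before the stop and the stop codon itself, TCC and TGA, in capitals. They lay in exonic sequence at chr10:80828280-80828309 and chr9:65686257-65686286, both on the plus strand, in a retained-intron transcript of Oaz1 and a processed transcript of Oaz2.
Oaz1 shift site: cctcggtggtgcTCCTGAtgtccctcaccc
Oaz2 shift site: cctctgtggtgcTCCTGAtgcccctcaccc

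The sites of both antizymes matched at 28 of 30 bases. In their main annotated transcripts the first base of the stop codon is left out of the sequence, so that the annotation writes the shift as a continuous frame. Counts per gene do not show whether ribosomes shifted or stalled at any of these sites.

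Amd1 and Oaz1 are both on chromosome 10 and Sat1 and Sms both on chromosome X, without overlap, and each of the other members is on a chromosome of its own. Of the biosynthetic genes, Odc1 (ENSMUSG00000011179) spans chr12:17544794-17551505 on the plus strand, Amd1 (ENSMUSG00000075232) chr10:40287458-40302186 on the minus strand, Srm (ENSMUSG00000006442) chr4:148591503-148594993 on the plus strand, and Sms (ENSMUSG00000071708) chrX:157443855-157492287 on the minus strand. Of the regulators, Oaz1 (ENSMUSG00000035242) spans chr10:80826656-80829290 and Oaz2 (ENSMUSG00000040652) chr9:65668001-65690300, both on the plus strand, and Azin1 (ENSMUSG00000037458) chr15:38487427-38519266 on the minus strand. Sat1 (ENSMUSG00000025283) spans chrX:155213132-155216449 on the minus strand and Smox (ENSMUSG00000027333) chr2:131491496-131525922 on the plus strand.

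Some of these genes have near-identical copies, between which reads could be split or dropped. The share of 50-base windows of the main transcript also found in transcripts of other genes was 87.6% for Amd1, mostly from Amd2, 53.9% for Oaz1, from the pseudogene Oaz1-ps, 42.2% for Odc1, from 15 genes, and 28.7% for Sms. It was 12% for Oaz2, 7.28% for Sat1, 2.40% for Srm, and 0% for Azin1 and Smox. Amd2 held only 5 to 26 counts in a library and Oaz1-ps 21 to 70. The levels of Amd1, Oaz1, Odc1 and Sms are uncertain to that extent, since how reads with several matches were counted is not given in the sources used here.

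Levels between genes were compared per kilobase of merged exons, in non-treated cytoplasm. By this length Srm, the spermidine synthase, was highest at 126 ± 19.5 CPM per kb (SD, n = 3). Sat1 at 77.7 ± 11.3, Odc1 at 67.0 ± 14.2 and Oaz1 at 64.9 ± 12.1 CPM per kb followed, and these neighbours overlapped between cultures. Azin1 at 18.1 ± 2.49 CPM per kb lay below them all. Oaz2 at 13.7 ± 0.954 and Amd1 at 10.7 ± 1.97 CPM per kb overlapped, and Sms at 7.55 ± 0.842 and Smox at 5.71 ± 0.399 CPM per kb were lowest and did not overlap each other. With the longest transcript as the length, Sat1 came first at 159 CPM per kb and Srm second at 151, and Amd1 at 11.8 lay below Sms at 12.2. Oaz1 has 2.558 kb of merged exons and a longest transcript of 2.526 kb, but a main transcript of 1044 nt. Its level per kb would be higher by the main transcript, so its place relative to Srm and Sat1 is not settled. By merged exons in N6L cytoplasm, Srm was the third, at 69.7 ± 4.04 CPM per kb, after Odc1 at 82.3 ± 6.68 and Sat1 at 79.5 ± 5.13.

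**Figure D1:**
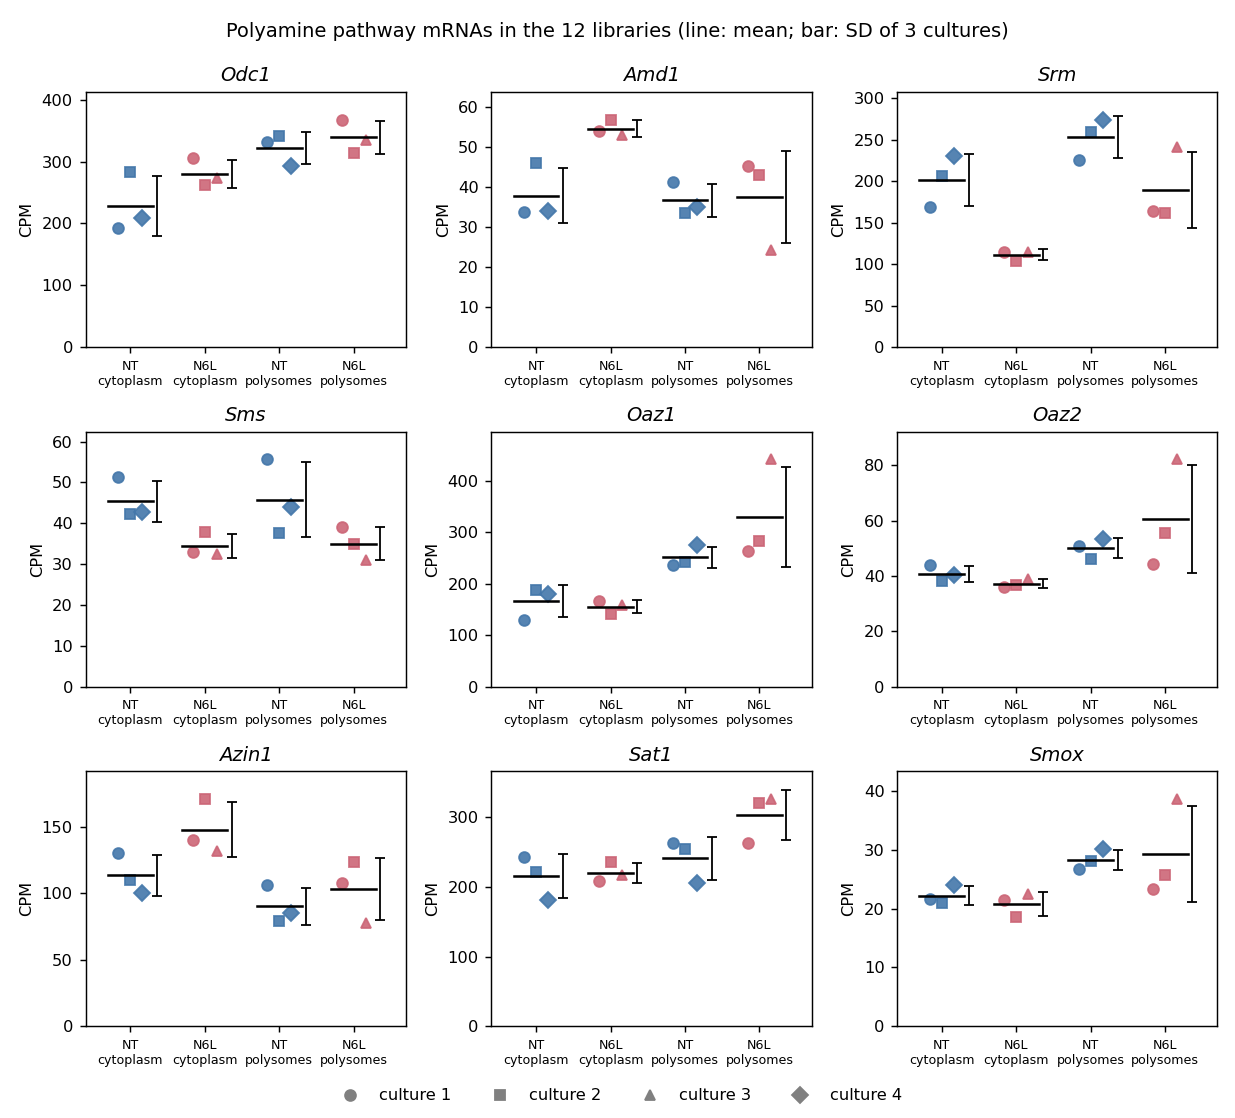
Level of each of the 9 polyamine pathway mRNAs (CPM, linear axis from 0) in the 12 libraries; symbols mark cultures, the horizontal line is the mean and the bar the SD of 3 cultures. Srm is lower in all 3 N6L cytoplasmic libraries (104 to 115 CPM) than in the 3 NT ones (169 to 230 CPM), and in the N6L polysomes culture 3 lies above the other two for Oaz1, Oaz2, Srm and Smox and below them for Azin1 and Amd1.

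The first comparison asked which of these mRNAs differed in the cytoplasm after N6L. Srm fell to 0.552 of its non-treated level, and it was the only one of the 9 members past the threshold, an adjusted p (FDR) under 0.05 in edgeR's quasi-likelihood test over all 13889 genes. The background was 28.3% of all genes tested, 13.8% in the lower direction. Of the genes called, 2013 of 3935 were higher, and 2588 of 3951 when libraries were scaled by their totals alone. The median log2 fold change was -0.09 over the 9 members and 0.04 over all genes tested.

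Srm makes spermidine from putrescine. In the cytoplasm it measured 169, 206 and 230 CPM in NT cultures 1, 2 and 4 and 115, 104 and 115 CPM in N6L cultures 1, 2 and 3. The highest N6L culture was below the lowest NT culture. The log2 fold change was -0.86 (SE 0.18, edgeR FDR 0.00504), and Srm passed the threshold in all 16 alternative analyses, with values from -0.97 to -0.41. The value nearest to 0 came from the fit with an offset for transcript length and GC content (FDR 0.0155).

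Sms, which adds the next aminopropyl group to make spermine, measured 51.2, 42.2 and 42.7 CPM in NT and 33.0, 37.9 and 32.5 CPM in N6L cytoplasm. Its N6L cultures also lay below its NT cultures, and the log2 value of -0.40 (SE 0.17, edgeR FDR 0.0930) did not pass the threshold. With the offset for transcript length and GC content it was -0.65 (edgeR FDR 0.00331). Sms passed in 3 of 16 alternatives, with values from -0.65 to -0.25.

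The decarboxylases had the opposite sign. Amd1 encodes S-adenosylmethionine decarboxylase, the source of aminopropyl groups, and measured 33.7, 46.0 and 34.1 CPM in NT and 54.1, 57.0 and 53.0 CPM in N6L cytoplasm. All N6L cultures were above all NT cultures, with a log2 value of 0.53 (SE 0.21, edgeR FDR 0.0752). Without N6L culture 3 it was 0.55 (edgeR FDR 0.0281). Amd1 passed in 4 of 16 alternatives, with values from 0.38 to 0.69. Odc1, the enzyme that makes putrescine, measured 193, 284 and 208 CPM in NT and 306, 262 and 273 CPM in N6L cytoplasm. NT culture 2 lay within the N6L range, and the log2 value was 0.30 (SE 0.16, edgeR FDR 0.173). Without NT culture 2 it was 0.48 (edgeR FDR 0.0498). Odc1 passed in only 1 of 16 alternatives, with values from 0.19 to 0.48.

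Among the regulators, Azin1, the antizyme inhibitor, measured 130, 110 and 99.9 CPM in NT and 140, 171 and 132 CPM in N6L cytoplasm. The groups did not overlap, though N6L culture 3 and NT culture 1 were close, and the log2 value of 0.38 (SE 0.19, edgeR FDR 0.144) did not pass. With the offset for length and GC content it was 0.07. The antizyme mRNAs overlapped between groups: Oaz1 measured 130, 188 and 180 CPM in NT and 167, 141 and 159 CPM in N6L cytoplasm. Its log2 value of -0.09 (SE 0.20, edgeR FDR 0.746) became 0.39 (edgeR FDR 0.0292) with the length and GC offset. Oaz1 passed in only 1 of 16 alternatives, with values from -0.24 to 0.39. Oaz2, the second antizyme, measured 43.9, 38.3 and 40.3 CPM in NT and 36.0, 36.6 and 39.0 CPM in N6L cytoplasm, a log2 value of -0.14 (SE 0.19, edgeR FDR 0.613).

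The catabolic mRNAs overlapped as well. Sat1, the acetyltransferase that marks spermidine and spermine for breakdown or export, measured 243, 222 and 182 CPM in NT and 208, 236 and 217 CPM in N6L cytoplasm, a log2 value of 0.03 with a 95% confidence interval of -0.31 to 0.37 (edgeR FDR 0.896). Smox, the oxidase that turns spermine back into spermidine, measured 21.7, 21.0 and 24.0 CPM in NT and 21.4, 18.6 and 22.5 CPM in N6L cytoplasm, a log2 value of -0.09 with an interval of -0.49 to 0.30 (edgeR FDR 0.724). In all, the cultures of 4 of the 9 members did not overlap between treatments in the cytoplasm, against 54.9% of all genes tested: 2 were higher (29.3% of all genes) and 2 lower (25.6%).

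**Figure D2:**
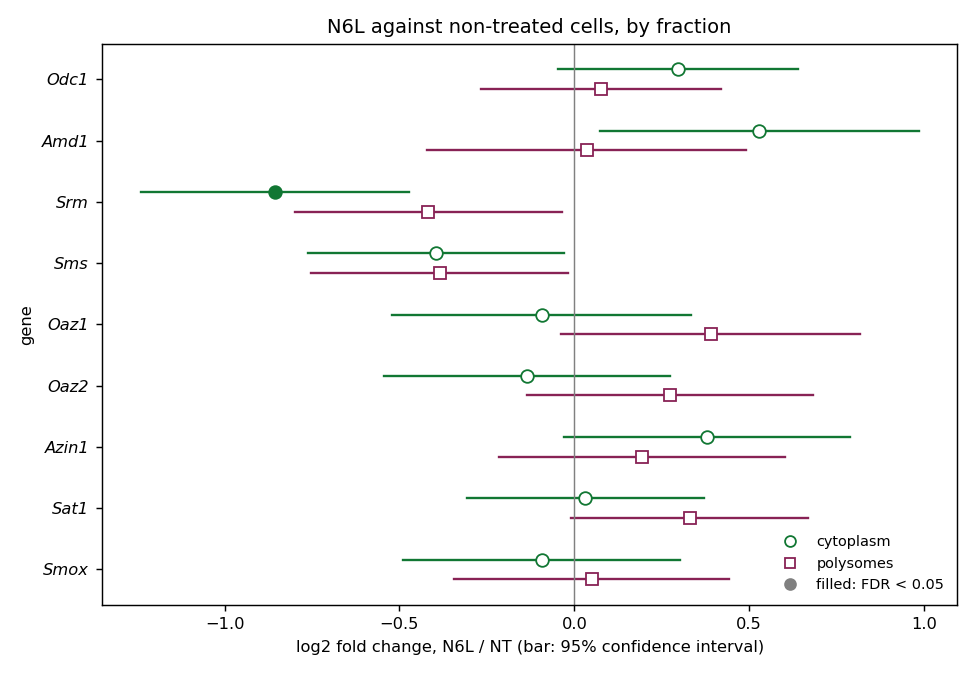
Log2 fold change of N6L over NT for each member in the cytoplasm (circles) and in the polysomes (squares), with its 95% confidence interval; filled symbols passed an FDR of 0.05. Srm in the cytoplasm (-0.86) is the only filled symbol, and Srm and Sms lie below 0 in both fractions.

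The same comparison was made in the polysomes, where the mRNAs are those carried by several ribosomes. None of the 9 members passed in edgeR's quasi-likelihood test, against 9.67% of all genes tested, 2 had an unadjusted p under 0.05 (26.5% of all genes did), and none passed in DESeq2. The polysomal cultures of every member overlapped between treatments, against 25.6% of all genes whose cultures did not. The median log2 value was 0.08 over the members and 0.00 over all genes. In the N6L group culture 3 was the highest value for Oaz1, Oaz2, Srm and Smox and the lowest for Amd1 and Azin1, each by a wider gap than that between cultures 1 and 2.

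Srm measured 225, 260 and 275 CPM in NT and 165, 162 and 242 CPM in N6L polysomes. N6L culture 3 lay among the NT cultures, and the log2 value was -0.42 (SE 0.18, edgeR FDR 0.151). Without N6L culture 3 it was -0.63 (edgeR FDR 0.0382). Sms measured 55.7, 37.6 and 43.9 CPM in NT and 39.1, 34.9 and 30.9 CPM in N6L polysomes, a log2 value of -0.39 (SE 0.17, edgeR FDR 0.167). These were the 2 members with an unadjusted p under 0.05.

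Amd1, whose N6L cultures were all above the NT ones in the cytoplasm, measured 41.4, 33.7 and 35.1 CPM in NT and 45.3, 43.2 and 24.3 CPM in N6L polysomes. Culture 3 was the lowest and culture 1 the highest of the 6 values, and the log2 value was 0.04 with an interval of -0.42 to 0.49 (edgeR FDR 0.934). Without N6L culture 3 it was 0.27 (edgeR FDR 0.310). Odc1 measured 331, 341 and 293 CPM in NT and 368, 314 and 335 CPM in N6L polysomes, a log2 value of 0.08 (SE 0.16, edgeR FDR 0.798). Azin1 measured 106, 79.3 and 85.2 CPM in NT and 108, 123.4 and 77.3 CPM in N6L polysomes, with culture 3 again the lowest value (log2 0.19, SE 0.19, edgeR FDR 0.558; without culture 3, 0.36, FDR 0.198).

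Oaz1 measured 236, 243 and 275 CPM in NT and 264, 282 and 442 CPM in N6L polysomes. The high value of culture 3 stood alone, and the log2 value was 0.39 (SE 0.20, edgeR FDR 0.230). Without that culture it was 0.12 (edgeR FDR 0.681). Oaz2 measured 50.9, 46.1 and 53.5 CPM in NT and 44.4, 55.4 and 82.3 CPM in N6L polysomes (log2 0.27, SE 0.19, edgeR FDR 0.385). Both antizymes were highest in that same library, and without it the value of Oaz2 was -0.0066 (edgeR FDR 0.982). Sat1 measured 263, 255 and 206 CPM in NT and 262, 320 and 327 CPM in N6L polysomes, a log2 value of 0.33 (SE 0.16, edgeR FDR 0.201). Smox measured 26.7, 28.0 and 30.1 CPM in NT and 23.4, 25.8 and 38.7 CPM in N6L polysomes (log2 0.05, SE 0.18, edgeR FDR 0.893), and without N6L culture 3 the value was -0.20 (edgeR FDR 0.396). With the length and GC offset 2887 of 13889 genes passed in the polysomes by edgeR, against 1343 without it. The 3 members among them were Oaz1 at 0.39 (FDR 0.0377), Sat1 at 0.53 (FDR 0.0395) and Srm at -0.47 (FDR 0.0110).

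The next question was how each mRNA was divided between polysomes and cytoplasm. In non-treated cells 0 of the 9 members passed in edgeR's test, against 0.209% of all genes, and 0 passed in DESeq2. The 2 with an unadjusted p under 0.05, which 13.4% of all genes had, were Oaz1, with a log2 polysome-to-cytoplasm value of 0.60 (SE 0.20, edgeR FDR 0.224), and Odc1, with 0.49 (SE 0.16, edgeR FDR 0.212). Azin1 had the lowest value, -0.33 (SE 0.19, edgeR FDR 0.459), and the median over the members was 0.30 against 0.03 over all genes.

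In N6L cells 6 of the 9 members passed, 5 higher and 1 lower in polysomes, against 39% of all genes tested, 18.4% higher and 20.6% lower. Scaled by library totals alone, 4 members passed, and 1762 of the 4881 genes called were higher, where 2559 of 5415 were with TMM. The 5 higher ones were Oaz1, at a log2 value of 1.08 (SE 0.20, edgeR FDR 0.00430), Srm at 0.77 (SE 0.18, edgeR FDR 0.00716), Oaz2 at 0.71 (SE 0.19, edgeR FDR 0.0128), Smox at 0.49 (SE 0.18, edgeR FDR 0.0478) and Sat1 at 0.46 (SE 0.16, edgeR FDR 0.0339). The 1 lower one was Azin1 at -0.52 (SE 0.19, edgeR FDR 0.0434). The antizymes and their inhibitor thus had opposite signs in this fit, though not with the offset for length and GC content given below, where all 3 were above 0. The median was 0.46 over the members and 0.03 over all genes.

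The remaining members did not pass. Amd1 had a log2 value of -0.54 (SE 0.21, edgeR FDR 0.0573). Both libraries of a culture come from the same lysate, and in the fit blocked by culture Amd1 passed at -0.59 (edgeR FDR 0.0285). Odc1 had 0.27 (SE 0.16, edgeR FDR 0.182) and Sms 0.02 (SE 0.17, edgeR FDR 0.928).

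Several of these calls were lost with single cultures left out. Over all genes, 5415 of 13889 were called with all cultures. This became 1653 of 14088 without N6L culture 3, 1153 of 14019 without N6L culture 2 and 5637 of 14100 without N6L culture 1. Without N6L culture 3 only Oaz1 passed, at 0.83 (edgeR FDR 0.0221), and Srm had 0.58 (FDR 0.0528), Oaz2 0.46 (FDR 0.0786), Sat1 0.39 (FDR 0.184), Smox 0.30 (FDR 0.226) and Azin1 -0.43 (FDR 0.152). Without N6L culture 2 only Oaz1 and Srm passed in edgeR's test, with Oaz2 at 0.78 (FDR 0.0658), Sat1 at 0.49 (FDR 0.133) and Smox at 0.52 (FDR 0.141). Without N6L culture 1 Amd1 passed as well, at -0.70 (edgeR FDR 0.0476). Azin1 lost its call whichever culture of either group was left out, with log2 values of -0.59 to -0.43 and edgeR FDR values of 0.0518 to 0.152. Without NT culture 2, which enters through the shared spread, Sat1 (0.46, FDR 0.0557) and Smox (0.49, FDR 0.0774) also lost theirs in edgeR's test, as Smox did without NT culture 1 (0.49, FDR 0.0767); these values are the same at this rounding as with all cultures. Scaled by library totals alone, Sat1 (0.32, edgeR FDR 0.148) and Smox (0.34, edgeR FDR 0.113) did not pass.

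The values also followed the length and base composition of the transcripts. Over the 9 members, Spearman's rho between the polysome-to-cytoplasm value in N6L cells and transcript length was -0.82, and with GC content 0.85, in a description over genes that share the same libraries. Over 13867 genes the same figures were -0.62 and 0.54. The main transcripts of Oaz1 (1044 nt, 56.7% GC) and Srm (1338 nt, 59.8% GC) were short and GC-rich, and those of Azin1 (4871 nt, 39.3% GC) and Amd1 (3204 nt, 41.4% GC) long and GC-poor. With an offset for both properties 2263 of 13889 genes passed, against 5415 without it. The 2 members that passed were Sms at 0.52 (edgeR FDR 0.0182) and Azin1, whose sign turned, at 0.36 (edgeR FDR 0.0287). Oaz1 was then 0.27 (edgeR FDR 0.142), Oaz2 0.25 (FDR 0.199), Sat1 0.34 (FDR 0.188), Srm 0.00 (FDR 0.987) and Smox -0.04 (FDR 0.813). With the same offset and the culture block, where 4325 of 13889 genes passed, Sat1 passed as well, at 0.33 (edgeR FDR 0.0429). What part length and composition had in the values was not tested.

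**Figure D3:**
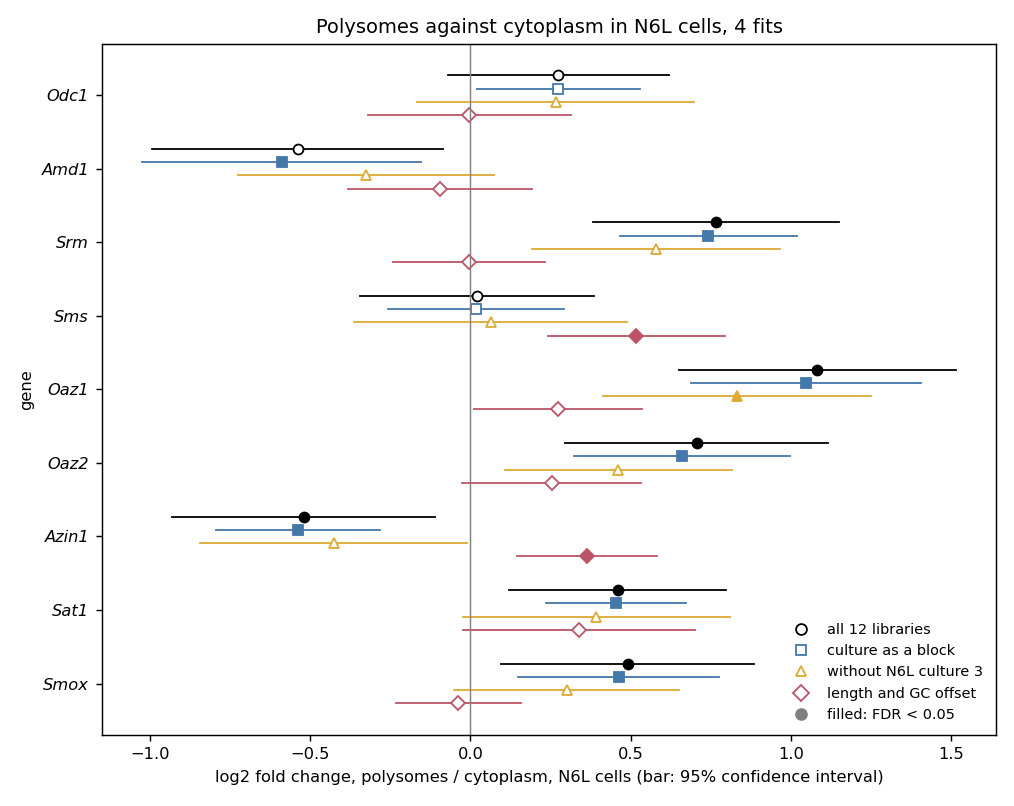
Log2 fold change of polysomes over cytoplasm in N6L cells for each member in 4 fits (all 12 libraries, culture as a block, without N6L culture 3, and with an offset for transcript length and GC content), with 95% confidence intervals; filled symbols passed an FDR of 0.05. Oaz1 goes from 1.08 in the fit of all libraries to 0.27 with the offset, and Azin1 goes from -0.52 to 0.36.

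The translational index compared the polysome-to-cytoplasm ratio of N6L cells with that of non-treated cells. No member passed in edgeR's test, where 0 of all 13889 genes did. In that fit 0 members had an unadjusted p under 0.05 against 7.73% of all genes, and 0 passed in DESeq2. In the fit blocked by culture, which pairs the libraries of a lysate, the smallest p of a member was that of Srm (0.41, edgeR p = 0.0412, FDR 0.223). With the length and GC offset added to the block, Srm was at -0.07. The smallest p was then that of Odc1 (-0.39, edgeR p = 0.0315, FDR 0.295). Of all 13889 genes 0 passed in either blocked fit. The log2 index was positive for 6 members and negative for 3, with a median of 0.14 against 0.01 over all genes. The calls in N6L cells are therefore not shown to differ from the values in non-treated cells.

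The highest log2 indices were those of Oaz1 at 0.48 (95% interval -0.12 to 1.09, edgeR FDR 0.555), Srm at 0.44 (-0.10 to 0.98, edgeR FDR 0.555) and Oaz2 at 0.41 (-0.17 to 0.99, edgeR FDR 0.562). Sat1 had 0.30, Smox 0.14 and Sms 0.01. The lowest was that of Amd1 at -0.49 (-1.14 to 0.15, edgeR FDR 0.556), with Odc1 at -0.22 and Azin1 at -0.19 between. With the length and GC offset Oaz1 was at 0.00, Srm at -0.06 and Azin1 at 0.16. Without N6L culture 3 Oaz1 was at 0.23, Srm at 0.25, Oaz2 at 0.17 and Amd1 at -0.28, none of them past the threshold.

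Per culture, the log2 polysome-to-cytoplasm ratio of Sat1 was 0.11, 0.20 and 0.18 in NT cultures 1, 2 and 4 and 0.33, 0.44 and 0.59 in N6L cultures 1, 2 and 3. That of Srm was 0.42, 0.33 and 0.25 in NT and 0.52, 0.64 and 1.07 in N6L. For both, every N6L culture was above every NT culture (exact two-sided permutation p = 0.1, the smallest that 3 against 3 cultures allow). They were the only 2 of the 9 members whose ratios did not overlap, against 29.7% of all genes tested, 15.3% in the higher direction.

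The antizyme ratios overlapped. That of Oaz1 was 0.86, 0.37 and 0.62 in NT and 0.66, 1.00 and 1.47 in N6L (exact two-sided permutation p = 0.2), and that of Oaz2 was 0.21, 0.27 and 0.41 in NT and 0.30, 0.60 and 1.08 in N6L. In both genes N6L culture 3 was the highest and N6L culture 1 lay inside the NT range. The ratio of Azin1 was below 0 in every culture, at -0.30, -0.47 and -0.23 in NT and -0.38, -0.47 and -0.77 in N6L.

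Amd1 varied most between cultures of a group, with ratios of 0.30, -0.45 and 0.04 in NT and -0.25, -0.40 and -1.12 in N6L. Odc1 had ratios of 0.78, 0.26 and 0.49 in NT and 0.27, 0.26 and 0.30 in N6L, so that its N6L cultures lay close together (SD 0.019 against 0.26 in NT). Sms lay near 0 in both groups, at 0.12, -0.17 and 0.04 in NT and 0.25, -0.12 and -0.07 in N6L. Smox had ratios of 0.30, 0.41 and 0.33 in NT and 0.13, 0.47 and 0.78 in N6L, where the N6L cultures fell on both sides of the NT ones.

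**Figure D4:**
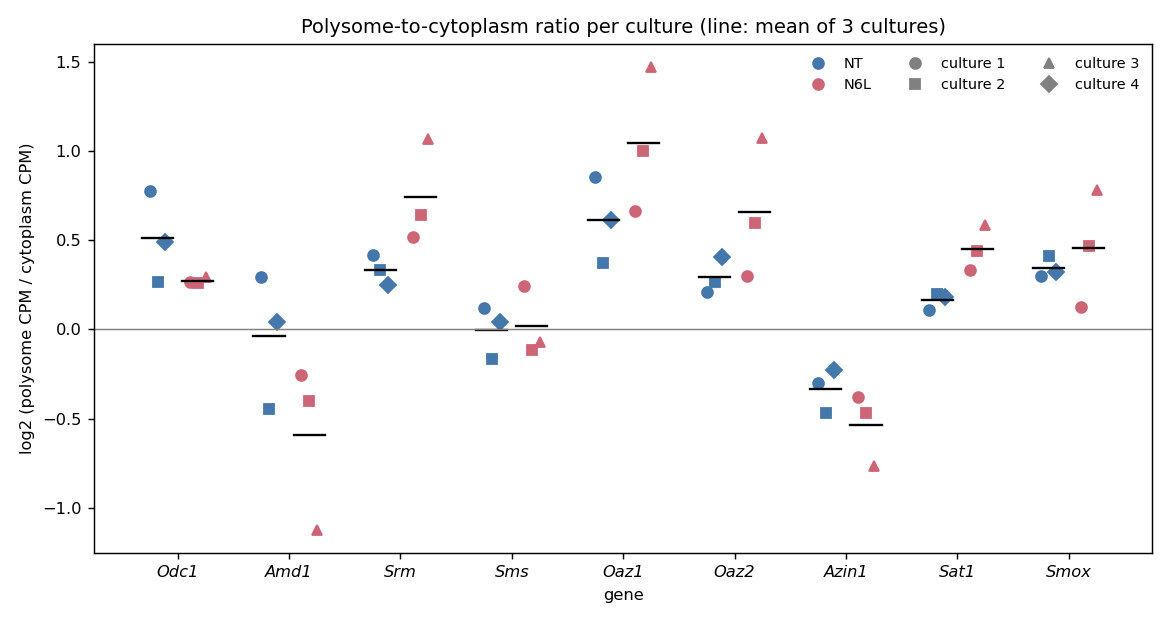
Log2 ratio of polysomal to cytoplasmic CPM in each culture for the 9 members, NT in blue and N6L in red, with symbols for cultures and a line for the mean of 3 cultures. For Sat1 and Srm all N6L cultures are above all NT cultures, and N6L culture 3 gives the extreme ratio for Amd1 (-1.12), Oaz1 (1.47), Oaz2 (1.08), Azin1 (-0.77), Srm (1.07), Sat1 (0.59) and Smox (0.78).

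Over the 12 libraries some members ran together and others in opposition, as a description over libraries that share cultures and fractions. Pearson's r of log2 CPM was 0.92 between Oaz2 and Smox, 0.88 between Oaz1 and Oaz2 and 0.81 between Azin1 and Amd1. It was -0.92 between Azin1 and Srm. Of 8950 other genes averaging 10 CPM or more, those whose pattern was most like that of Odc1 were Bid (r = 0.93), Zfp346 (r = 0.93), Rexo4 (r = 0.91), Rrp8 (r = 0.91) and Med18 (r = 0.91).

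Of 37 further genes of the pathway, in 5 lists, 26 passed the filter. In the cytoplasm 7 of the 26 passed in edgeR's test, 2 higher and 5 lower after N6L, and in the polysomes 3 passed, 1 higher and 2 lower. Polysomes against cytoplasm gave 0 in non-treated cells and 11 in N6L cells, 8 higher and 3 lower, where 39% of all genes were called, 18.4% higher and 20.6% lower. The translational index gave 0. Of all genes tested, 14.5% were higher and 13.8% lower in the cytoplasm, and 6.01% higher and 3.66% lower in the polysomes. By library totals alone the polysomal split was 1082 higher of 1394, against 835 of 1343 with TMM. The median log2 value in the cytoplasm was -0.11 against 0.04 over all genes.

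The list on the supply of S-adenosylmethionine and the salvage of methylthioadenosine, the by-product of the spermidine and spermine synthases, had 8 of 9 genes tested. It held 1 higher and 3 lower in the cytoplasm and 1 higher and 2 lower in the polysomes. Apip, an enzyme of the salvage route, measured 47.4, 44.2 and 70.0 CPM in NT and 25.6, 27.5 and 27.8 CPM in N6L cytoplasm. Every N6L culture was below every NT culture, with a log2 fold change of -0.995 (SE 0.20, edgeR FDR 0.00418) in the cytoplasm and -0.99 (SE 0.20, edgeR FDR 0.00930) in the polysomes. With the length and GC offset the cytoplasmic value was -0.59 (edgeR FDR 0.00393). Without N6L culture 2 the polysomal value was -0.96 (edgeR FDR 0.0782).

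Mtap, which starts that salvage, measured 268, 221 and 245 CPM in NT and 168, 164 and 159 CPM in N6L cytoplasm. The groups did not overlap, with -0.58 (SE 0.19, edgeR FDR 0.0334) in the cytoplasm and -0.71 (SE 0.19, edgeR FDR 0.0306) in the polysomes. Its cytoplasmic call was lost without NT culture 1 (-0.51, edgeR FDR 0.123), NT culture 4 (-0.61, FDR 0.0752), N6L culture 1 (-0.60, FDR 0.0512) or N6L culture 2 (-0.63, FDR 0.0937), and with library totals alone (-0.43, FDR 0.116). Its polysomal call was lost without NT culture 1 (-0.69, edgeR FDR 0.127), NT culture 4 (-0.63, FDR 0.117), N6L culture 2 (-0.78, FDR 0.115) or N6L culture 3 (-0.50, FDR 0.0626), with library totals alone (-0.60, FDR 0.0774), in the 2 groups alone (-0.70, FDR 0.124) and with the number in the labels as a block (-0.44, FDR 0.109). Enoph1, also of the salvage route, was the other lower gene in the cytoplasm at -0.48 (edgeR FDR 0.0408), named here after its value was seen.

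Mat2a, which makes S-adenosylmethionine, measured 106, 111 and 99.5 CPM in NT and 164, 175 and 148 CPM in N6L cytoplasm. It rose by a log2 value of 0.62 (SE 0.15, edgeR FDR 0.00842) in the cytoplasm and 0.49 (SE 0.15, edgeR FDR 0.0467) in the polysomes. The cytoplasmic call was lost without N6L culture 2 (0.51, edgeR FDR 0.0830). The polysomal call was lost without NT culture 1 (0.55, edgeR FDR 0.130), 2 (0.51, FDR 0.0989) or 4 (0.43, FDR 0.144), and without N6L culture 1 (0.45, FDR 0.0966) or 2 (0.42, FDR 0.251). It was also lost with RLE size factors (0.48, edgeR FDR 0.0524), without the filter on low counts (0.50, FDR 0.103), with technical replicate a alone (0.41, FDR 0.134), in the 2 groups alone (0.50, FDR 0.185) and with the number block (0.52, FDR 0.0503), so that it passed in 6 of 16 alternatives.

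Hypusine, made from spermidine, is carried by the translation factor eIF5A. Of the 4 genes of that list 2 were lower in the cytoplasm and 0 passed in the polysomes, both by edgeR. Dohh, the enzyme of the last step of hypusine synthesis, measured 108, 114 and 114 CPM in NT and 62.7, 58.3 and 68.5 CPM in N6L cytoplasm. No value overlapped (log2 -0.83, SE 0.19, edgeR FDR 0.00725), while the polysomal value was -0.22 (SE 0.19, edgeR FDR 0.471). With the length and GC offset the cytoplasmic value was -0.39 (edgeR FDR 0.0203). Eif5a measured 905, 977 and 1372 CPM in NT and 729, 648 and 661 CPM in N6L cytoplasm, a log2 value of -0.68 (SE 0.22, edgeR FDR 0.0374). Its call was lost without NT culture 2 (-0.74, edgeR FDR 0.0599) or 4 (-0.50, FDR 0.10), without N6L culture 1 (-0.73, FDR 0.0527) or 2 (-0.69, FDR 0.113), and with the length and GC offset (-0.34, FDR 0.0618).

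In the transport list 7 of 12 genes were tested and 1 passed in the cytoplasm. It was Slc7a2, a carrier of cationic amino acids, at 0.122, 0.363 and 0.150 CPM in NT and 0.471, 0.626 and 0.753 CPM in N6L cytoplasm. These are low levels: a library held 3 to 8 counts in NT and 12 to 31 in N6L cytoplasm. In the polysomes it held 0 to 3 in NT and 5 to 10 in N6L. Slc7a2 passed the filter on low counts only through the N6L cytoplasm, the group it was called higher in, so its call depends on that filter. The log2 value was 1.59 (SE 0.51, edgeR FDR 0.0327). The call was lost in DESeq2 (FDR 0.0525) and, in edgeR, with the length and GC offset (1.11, FDR 0.122) and with the number block (FDR 0.0959). It was also lost in edgeR without NT culture 1 (1.25, FDR 0.154), NT culture 4 (1.42, FDR 0.0731), N6L culture 2 (1.53, FDR 0.114) or N6L culture 3 (1.43, FDR 0.0953). The paralogs and further polyamine enzymes (4 of 7 tested) and the genes of ornithine and arginine supply (3 of 5 tested) had 0 genes past the threshold in either fraction by edgeR. In the N6L cells the polysome-to-cytoplasm test called 2, 1, 1, 4 and 3 genes of the paralog, ornithine, S-adenosylmethionine, transport and eIF5A lists by edgeR, against the 39% of all genes called.

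**Figure D5:**
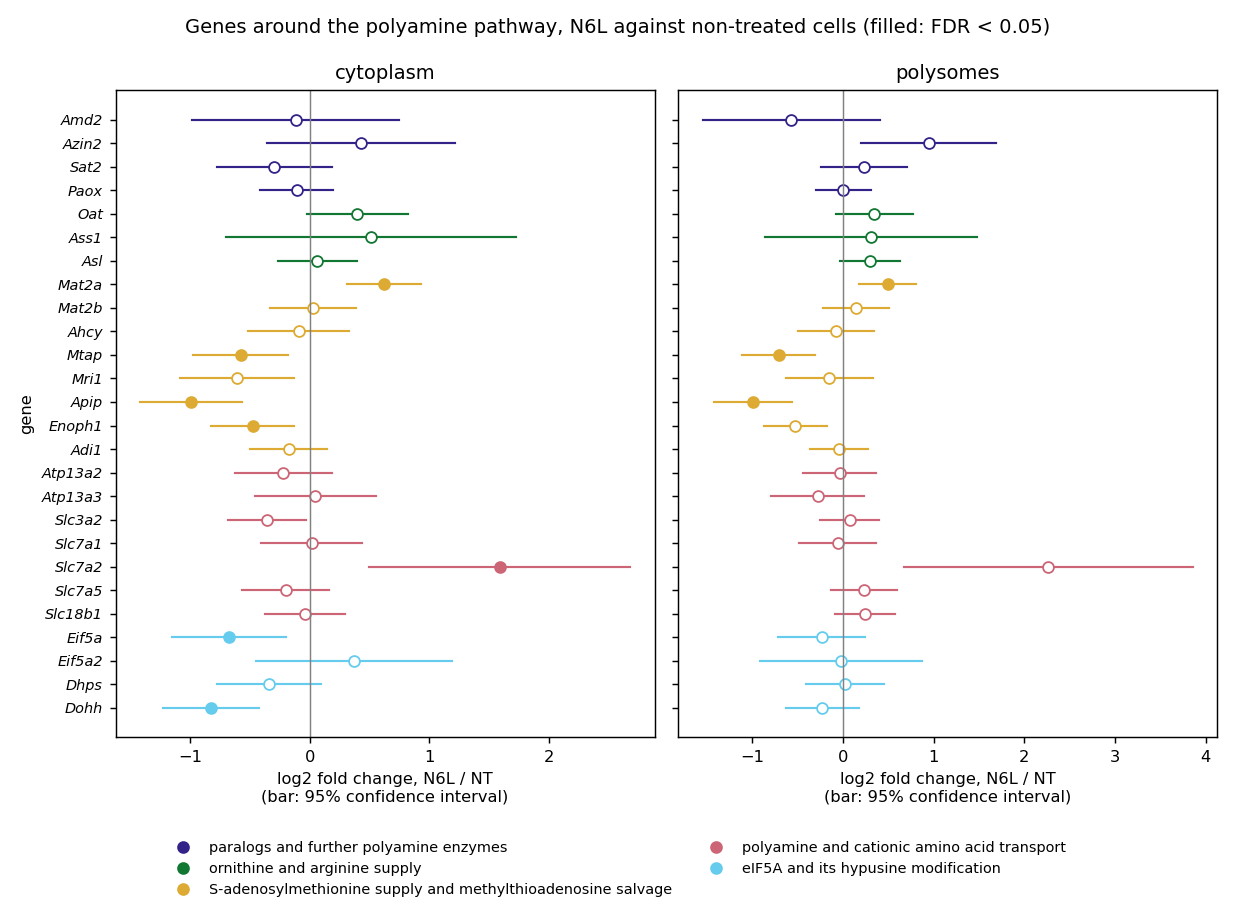
Log2 fold change of N6L over NT for the 26 further pathway genes tested, in the cytoplasm (left) and in the polysomes (right), with 95% confidence intervals; colours mark the 5 lists and filled symbols passed an FDR of 0.05. Apip, Mtap and Mat2a are filled in both fractions. Dohh (-0.83), Eif5a (-0.68), Enoph1 (-0.48) and Slc7a2 (1.59) are filled in the cytoplasm only. Whether the fractions differ is the translational index, which called no gene.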

How the data were processed

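The authors deposited whole-number read counts per gene, not normalized, from libraries of polyA-selected, strand-marked mRNA; the processing notes in the labels name STAR, HTSeq 0.5.3 and the build mm10. No source used here gives the strand setting, the annotation release or the handling of reads with several matches. Of 50600 genes listed, 50376 matched GENCODE vM21 (GRCm38), from which positions, lengths and sequences were taken.

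The 4 technical replicates of each library, which differed little beyond counting error (chi-square per degree of freedom 1.02 to 1.04), were summed. For 3 of those of N6L cytoplasm culture 2, title and description named different cultures, and the title was used. Totals of 19519911 to 44972333 counts limit the precision of low genes, in counting error only.

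Genes were filtered with filterByExpr, scaled by TMM and fitted as 4 group means over all 12 libraries in edgeR 4.0.16 (limma 3.58.1, R 4.3.3), with the quasi-likelihood test and Benjamini-Hochberg adjustment over 13889 genes, at an FDR under 0.05. DESeq2 1.42.0, other scalings and filters, left-out cultures, blocks and a length and GC offset were alternatives. Scripts were tested on simulated data. Ratios per culture used log2 CPM with a prior count of 2. Deviations from the group means correlated between the cytoplasm and polysomes of the same culture at 0.36, 0.45 and 0.64 in NT and 0.037, 0.20 and 0.23 in N6L; the pairing itself comes from the shared lysate.

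The members and lists were chosen with earlier results of these data known. Named were all members, up to 3 genes of each pathway list with the smallest FDR in either N6L comparison, and the 5 genes most like Odc1.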

Additional observations from a re-analysis of the deposited data

How the results depend on the processing

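Each value was recomputed with other scalings, filters, tools, technical replicates, samples, blocks and an offset for transcript length and GC content; the cause of a change was not tested unless named. Over the genes named, 791 recomputed values kept their sign and their side of the threshold, 65 kept their sign and lost a call, 21 kept their sign and gained one, 58 changed sign (among them 4 that lost a call and 1 that gained one) and 7 levels per length moved by more than the SD. In the cytoplasm 1 member passed, where 3935 of 13889 genes did. Without the filter on low counts 2 members did (4403 of 25915 genes), and with the offset 3 (3973 of 13889). In a fit of only the 2 groups compared 3 members passed (5666 of 13426 genes), and with single cultures left out 1 to 2 (1295 to 4042 genes). In the polysomes 0 members passed (1343 of 13889 genes), and 3 did with the offset (2887 of 13889). With single cultures left out 0 to 1 did (146 to 1579 genes). For polysomes against cytoplasm in N6L cells 6 members passed, where 5415 of 13889 genes did. With the offset 2 members did (2263 of 13889 genes), and with the 2 groups alone 3 (4467 of 13467). With single cultures left out 1 to 6 did (1153 to 5861 genes). With the culture as a replicate block 7 did (7460 of 13889), and with that block and the offset 3 (4325 of 13889). In non-treated cells and for the translational index 0 members passed in every alternative. Over all genes the translational index called 114 without the filter on low counts, 1 without N6L replicate 1 and otherwise 0. The other counts over all genes ranged, over the alternatives, from 1295 to 5666 in the cytoplasm (3935 in the fit reported), from 146 to 2887 in the polysomes (1343), and for polysomes against cytoplasm from 0 to 647 in NT (29) and from 1153 to 7460 in N6L (5415), with the lowest, apart from the 0 without NT replicate 4, all without N6L replicate 2.

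Pairs of cytoplasm and polysomes are given by the lysate, and the culture block on its own changed the call of no member but Amd1; added to the offset, it gave Sat1 a call in N6L cells (0.33, edgeR FDR 0.0429, against 0.34, FDR 0.188). The cultures of the NT and N6L groups share only numbers. Their deviations correlated at 0.23 (number 1) and 0.045 (number 2) in the cytoplasm and 0.30 and 0.0076 in the polysomes. With the number as a replicate block 3 members passed in the cytoplasm, where 4710 of 13426 genes did. In the polysomes 1 member passed, where 1871 of 13351 genes did. Only 2 numbers are shared, so a best match by number was not assessed.

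The members that changed sign are given with their log2 values. With the offset they were, in the cytoplasm, Oaz1 (0.39), Oaz2 (0.030) and Smox (0.10); in the polysomes, Odc1 (-0.011) and Smox (-0.14); for polysomes against cytoplasm in NT, Azin1 (0.21) and Amd1 (0.26); in N6L, Odc1 (-0.0034), Azin1 (0.36), Srm (-0.0037) and Smox (-0.038); and for the translational index, Oaz1 (-0.0014), Azin1 (0.16), Srm (-0.059) and Smox (-0.24). With the culture block and the offset they were Azin1 (0.21) and Amd1 (0.27) in NT, Odc1 (-0.011), Azin1 (0.36), Srm (-0.0098) and Smox (-0.038) in N6L, and Oaz1 (-0.015), Azin1 (0.15), Srm (-0.067) and Smox (-0.24) for the index. The culture block alone turned Sms in NT (-0.00036), and the number block Sat1 in the cytoplasm (-0.095) and Smox in the polysomes (-0.16).

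Scaling by library size alone shifted the median of all genes in the cytoplasm from 0.04 to 0.19, and for polysomes against cytoplasm in N6L from 0.03 to -0.11. In the cytoplasm it turned Oaz1 (0.052), Oaz2 (0.0085) and Smox (0.052), all below the shift of the median in the cytoplasm. It also turned Sms for polysomes against cytoplasm in NT (-0.063), in N6L (-0.11) and for the index (-0.043). Sat1 in the cytoplasm turned with RLE size factors (-0.0033), technical replicate a alone (-0.020), the 2 groups alone (-0.0070) and DESeq2 (-0.0034). Sms turned without the filter in N6L (-0.0017) and for the index (-0.022), and with technical replicate a alone (-0.045 and -0.046).

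With single cultures left out, the values that crossed 0 ranged, in the cytoplasm, from -0.24 to 0.0062 for Oaz1 and from -0.11 to 0.13 for Sat1; in the polysomes, from -0.0066 to 0.46 for Oaz2, from -0.12 to 0.27 for Amd1 and from -0.20 to 0.19 for Smox; for polysomes against cytoplasm in NT, from -0.22 to 0.17 for Amd1 and from -0.056 to 0.085 for Sms; in N6L, from -0.097 to 0.11 for Sms; and for the index, from -0.11 to 0.13 for Sms and from -0.048 to 0.30 for Smox.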
